A study of Mus musculus with 4 samples.

Results

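mmu-miR-129-3p, mmu-miR-129-5p, mmu-miR-138 and mmu-miR-218 are neuron-enriched microRNAs, and they are described here in sorted mouse retinal progenitors and Müller glia. They were taken by name, as neuron-enriched miRNAs other than miR-124 and miR-9, and make up 4 of the 566 mouse miRNA probes on a nanoString nCounter panel. The panel joins a tag to each mature miRNA and counts single molecules by a colour-coded barcode. There were 4 libraries, 1 per group, each from tdTomato-positive cells sorted out of pooled retinas after 75 mg/kg tamoxifen on 2 consecutive days. P2 RPC came from 8 retinas of postnatal day 2 Sox2-CreER mice given tamoxifen on days 0 and 1. P8 MG came from 52 retinas of day 8 Rlbp-CreER mice given it on days 6 and 7, P11 MG from 32 retinas (day 11 in the description, P11/12 in the title) of mice given it on days 9 and 10, and adult MG from 40 retinas of mice given it after day 21. All mice carried the floxed-stop tdTomato allele. The series' design text calls the progenitors adult, whereas the sample labels give P2.

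Each group is a pool of animals measured once, so differences have no check by replicates and carry no p-value. Cre line, age, number of retinas and assay lane all differ between the progenitors and the glia and cannot be told apart. Sox2 is expressed in retinal progenitors, Müller glia and some amacrine neurons, and the tdTomato label is inherited by daughter cells. In a bulk sample, fewer cells of a type and less RNA per cell cannot be told apart either.

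A microRNA is cut from a hairpin precursor, loaded into an Argonaute protein and guided to messenger RNAs mainly by its seed, the bases from position 2 to position 8. Either arm of the hairpin, called 5p or 3p, can be loaded. miR-129-5p represses potassium channel and synaptic transcripts in hippocampal neurons, and in the Xenopus retina miR-129 is among the miRNAs that hold back translation of the bipolar cell genes otx2 and vsx1. miR-138 limits dendritic spine size in rat hippocampal neurons through the depalmitoylating enzyme APT1. miR-218 is abundant in motor neurons and lies within the Slit2 and Slit3 genes, which encode axon guidance ligands.

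The mature sequences are shown because the 4 miRNAs carry 4 different seeds, so that they form no seed family. They are RefSeq's (GRCm38.p6), 5′ to 3′, with the seed in capitals, and all 4 probes were matched by name. Those named miR-129-3p, miR-138 and miR-218 were matched through older naming to RefSeq's miR-129-2-3p, miR-138-5p and miR-218-5p, and the tables hold no accession against which to check this.

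miR-129-3p: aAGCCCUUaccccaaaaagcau
miR-129-5p: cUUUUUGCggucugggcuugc
miR-138: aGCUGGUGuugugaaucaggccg
miR-218: uUGUGCUUgaucuaaccaugu

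Among the 1679 mature names of that table, no other shared the seed of miR-129-3p, miR-129-5p or miR-138. The seed of miR-218 was shared with 1 other, miR-7002-3p. The sequences are 21 to 23 bases long, with a G and C content from 38.1% for miR-218 to 57.1% for miR-129-5p.

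The miR-129-5p, miR-138 and miR-218 sequences each come unchanged from 2 loci, so a probe cannot say which locus was active. Mir138-2 lies within the span of Nup93, Mir218-1 within Slit2 and Mir218-2 within Slit3, while Mir129-1, Mir129-2 and Mir138-1 lie within no other gene of the RefSeq table. The 2 hairpins of miR-129 are shown because both arms were counted, with the arms that RefSeq annotates in capitals. Mir129-1 lies at chr6:29022619-29022691 on the plus strand and Mir129-2 at chr2:94241364-94241453 on the minus strand.

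Mir129-1: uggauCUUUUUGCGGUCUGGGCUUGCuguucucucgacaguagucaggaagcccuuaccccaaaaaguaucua
Mir129-2: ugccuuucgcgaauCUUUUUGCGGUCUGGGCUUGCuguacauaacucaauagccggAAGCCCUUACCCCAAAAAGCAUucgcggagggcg

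The 3p arm of Mir129-2 also matches the Mir129-1 hairpin with 1 mismatch, C20U, counted from 1 at the 5′ end of the arm. Whether the miR-129-3p probe also takes up a product of Mir129-1 was not tested.

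The lanes held between 576117 and 769736 counts in all, of which 470304 to 695390 fell on mouse miRNA probes. A probe counted as above background when it exceeded the average of the 8 negative controls in its lane by more than 2 SD, a threshold of 60.7 raw counts in the progenitors and 137, 106 and 71.7 in the P8, P11 and adult glia. Background was therefore 2.26 times as high in P8 MG as in P2 RPC, and the 4 miRNAs reached at most 4.93 times the threshold of their lane, miR-218 in P2 RPC. The threshold was passed by 220 miRNA probes in the progenitors and by 134, 149 and 171 in the P8, P11 and adult glia. All 7 miRNAs of a Müller glia list passed the threshold in every library, P2 RPC included. Of these, 5, 6 and 7 were called higher than in P2 RPC in the P8, P11 and adult glia. Among all miRNAs above background in either library, 12.7%, 17.7% and 20.7% were called higher in the same comparisons. The Müller glia list was chosen with earlier results of these data known, so it is no independent check of the labels. The panel holds no mRNA marker of progenitors.

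miR-129-3p was higher in P8 MG than in P2 RPC. By contrast, miR-138 and miR-218 stood above background in P2 RPC and in none of the glia. miR-129-5p was called higher in P8 MG than in P2 RPC. It lay close to background in both libraries, so the call by itself does not measure a change. Here "called" means above background in the higher library, at least 2-fold apart after scaling, and a 95% counting interval that does not include a ratio of 1. Intervals cover counting error only. Counts were scaled on the positive controls and then on the 100 most abundant miRNA probes, and the scaled values are called normalized counts.

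**Figure D1:**
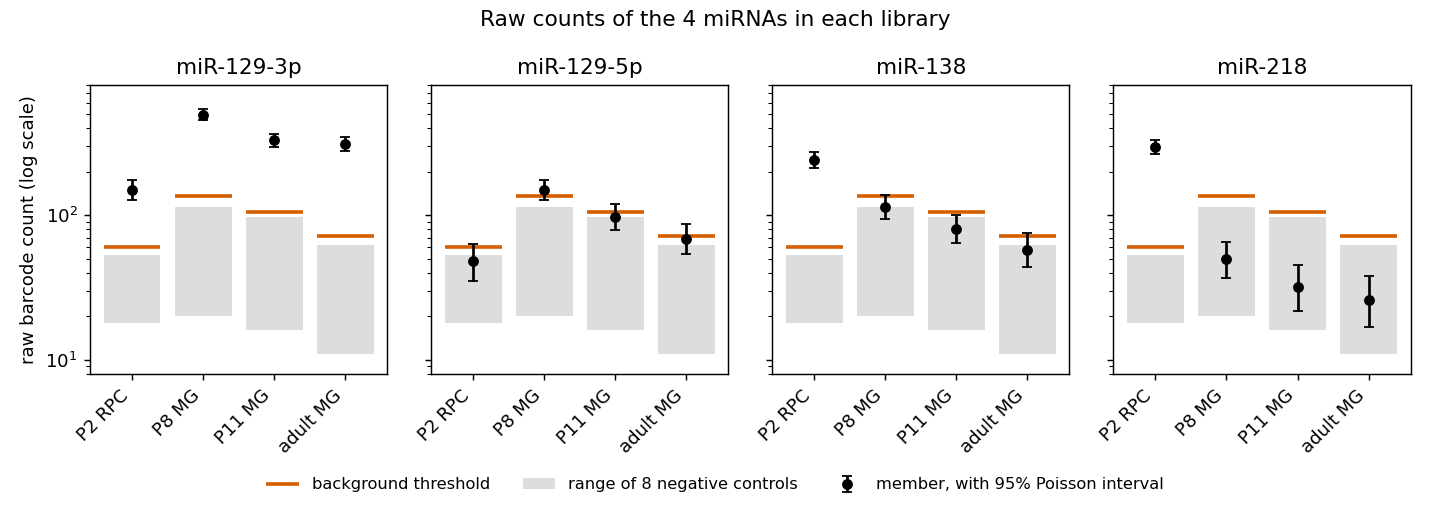
Raw barcode count (log axis) of each miRNA in the 4 libraries, with 95% Poisson intervals as bars, the range of the 8 negative controls in grey and the background threshold in orange. miR-129-3p lies above the threshold in every library, miR-138 and miR-218 only in P2 RPC, and miR-129-5p only in P8 MG.

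miR-129-3p, the arm that the panel counted most, had 151 raw counts in the progenitors and 497, 330 and 313 in the P8, P11 and adult glia. It was above the threshold, all 8 negative controls and all 33 viral miRNA probes of the panel in each library. Its normalized counts were 136 (95% interval 116 to 160), 459.6 (420.1 to 502), 358 (320.1 to 398) and 359 (321 to 402) in the same order. All 3 glial libraries were thus higher than the progenitors, and their intervals do not meet that of P2 RPC. It ranked 121st of the 566 probes in the progenitors and 59th, 69th and 66th in the P8, P11 and adult glia, and at its highest, in P8 MG, made up 0.106% (exact binomial 0.0966 to 0.115) of miRNA counts.

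Against P2 RPC, miR-129-3p was 3.37-fold higher (2.80 to 4.07) in P8 MG. Among the 125 miRNAs above background in both of these libraries the median log2 ratio was -0.00088 (SD 1.07), and that of miR-129-3p was 1.75. In P11 MG it was 2.62-fold higher (2.15 to 3.20) than in P2 RPC, a log2 ratio of 1.39 beside a median of 0.14 (SD 1.43) over 137 miRNAs. In adult MG it was 2.63-fold higher (2.16 to 3.22), a log2 ratio of 1.40 beside a median of 0.18 (SD 2.01) over 149. The spread over all miRNAs was wide, so the ratio of miR-129-3p lay within 2 SD of the median in all 3 comparisons.

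Within the glia miR-129-3p was called in no comparison. P8 MG was 1.29-fold higher (1.12 to 1.48) than P11 MG and 1.28-fold higher (1.11 to 1.48) than adult MG. Adult MG and P11 MG did not differ beyond counting error, with a ratio of 1.01 (0.858 to 1.18). With the scaling used, the order by level was therefore P8 MG, then adult MG and P11 MG together, then P2 RPC. The log2 ratio of adult to P11 MG was 0.0072. It was -0.60 on total counts, 0.49 on ligation controls and 0.63 in the authors' deposited table. The place of P8 MG over adult MG depended on the scaling, since the log2 ratio of adult to P8 MG was -0.35, but 0.24 on housekeeping mRNAs, 0.13 on their sum and 0.25 in the authors' deposited table.

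miR-129-5p, the arm made from both loci, was close to background throughout. It had 48 raw counts in the progenitors and 150, 98 and 69 in the P8, P11 and adult glia, or 0.791, 1.09, 0.927 and 0.963 times the threshold of its lane. Only P8 MG was above the threshold, which there lay at 137 raw counts. Against the threshold of P2 RPC, P8 MG was at least 2.53-fold higher, which met the rule. Scaled like the counts, the thresholds were 127 in P8 MG and 54.8 in P2 RPC, already more than 2-fold apart. Any probe just above background in P8 MG and not above it in P2 RPC would therefore be called higher. The call by itself does not measure a change of miR-129-5p. The authors' deposited table lists miR-129-5p at 1, its lowest value, in all 4 libraries. With a background of the mean plus 3 SD it was above background in none, so that no ratio could be given.

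The 2 arms can be set against each other within a lane. For each raw count of miR-129-5p there were 3.15 of miR-129-3p in the progenitors and 3.31, 3.37 and 4.54 in the P8, P11 and adult glia. These are ratios of barcode counts of 2 probes and not of molecules. miR-129-5p was above background in P8 MG alone, and the mean negative control of the 4 lanes was 35.8 to 70.5 counts. Neither a change of the arm ratio between libraries nor its absence can be read from these counts.

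Because the P8 MG lane had the highest background, raw ratios were set beside those of miRNA probes that stood above background in no library and had at least 40 counts over both libraries. The raw count of miR-129-3p was 3.29 times as high in P8 MG as in P2 RPC, and that of miR-129-5p 3.13 times. Among 222 background probes the median of this ratio was 1.80 and the highest 3.52, and 3 reached that of miR-129-3p. By their definition these probes never pass a threshold, so miR-129-5p could not be one of them. Their counts were lower than those of miR-129-3p, so their ratios vary more by counting error alone. How many reach a member is therefore a description and does not measure the part of background in either arm. For P11 MG the raw ratio of miR-129-3p to P2 RPC was 2.19, which 10 of 201 background probes reached, with a median of 1.36. For adult MG against P2 RPC the ratio of miR-129-3p was 2.07, which 7 of 190 background probes reached, with a median of 1.07. The ratio of miR-129-5p was 2.04 in P11 MG, reached by 13 of 201 background probes. In adult MG it was 1.44, reached by 30 of 190. The part of lane background in the counts of miR-129-5p was not tested further. miR-129-3p kept 104 normalized counts in the progenitors and 394, 303 and 315 in the P8, P11 and adult glia after the mean of the negative controls was subtracted, so all glial libraries were again higher than P2 RPC.

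**Figure D2:**
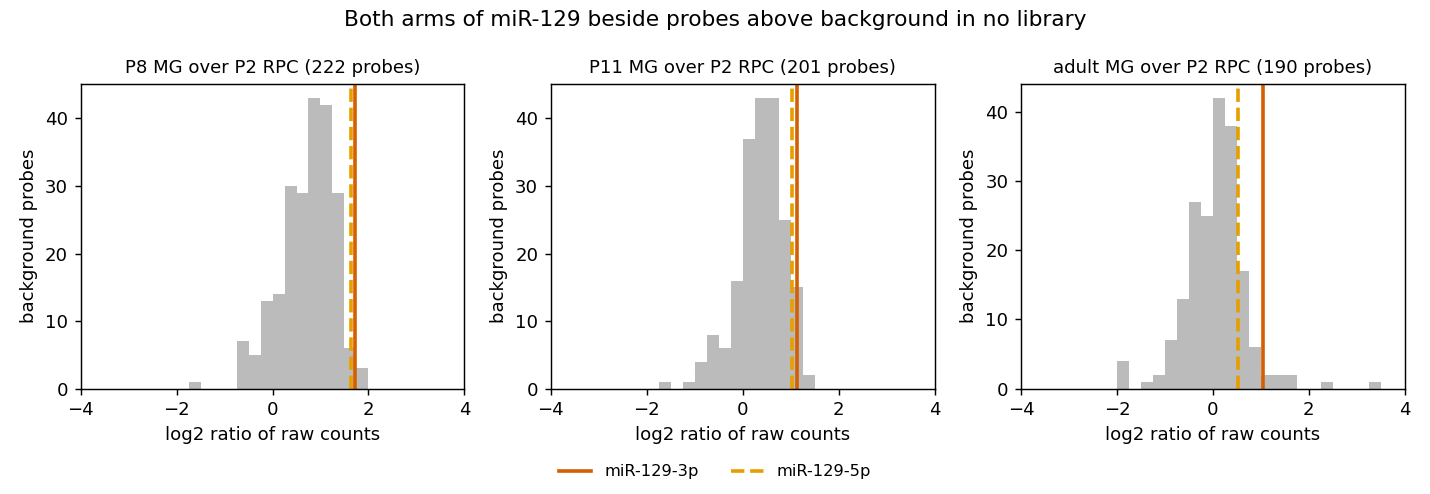
Histograms of the log2 ratio of raw counts, each glial library over P2 RPC, for miRNA probes above background in no library, with lines for the 2 arms of miR-129. Both lines lie at the upper edge of the histogram for P8 MG, where 3 of 222 background probes reached the ratio of miR-129-3p. The ratio of miR-129-5p was reached by 13 of 201 background probes for P11 MG and by 30 of 190 for adult MG. The background probes have lower counts than miR-129-3p, so their ratios vary more by counting error.

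miR-138, the spine-size regulator, had 241 raw counts in the progenitors and 115, 81 and 58 in the P8, P11 and adult glia. The first is 3.97 times the threshold of its lane and the others are 0.838, 0.766 and 0.809 times theirs. P2 RPC was thus the high library, and the glia did not rise above background. Their counts still lay above 28, 27 and 26 of the 33 viral probes. In P2 RPC miR-138 had 218 normalized counts (191 to 247) and ranked 86th of 566.

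Set against the glial thresholds, miR-138 was at least 2.65-fold lower in adult MG than in P2 RPC, and was called. The bounds were at least 1.72-fold lower for P8 MG and at least 1.90-fold lower for P11 MG, which did not meet the rule. These bounds follow the thresholds, which were higher in the P8 MG and P11 MG lanes. The raw count in P8 MG was 0.477 times that in P2 RPC, and in adult MG 0.241 times. Among the glia no ratio could be given.

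miR-218, the miRNA of the Slit2 and Slit3 loci, had the lowest glial counts of the 4. It had 299 raw counts in the progenitors and 50, 32 and 26 in the P8, P11 and adult glia. In the glia this was below the mean of the negative controls, which was 70.5, 50.4 and 38.6, so miR-218 was not detectable there at this background. In P2 RPC it was 4.93 times the threshold, had 270.3 normalized counts (240.5 to 303), ranked 72nd of 566 and made up 0.0620% (0.0552 to 0.0695) of miRNA counts.

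miR-218 was at least 2.13-fold lower in P8 MG, 2.36-fold lower in P11 MG and 3.28-fold lower in adult MG than in P2 RPC, and was called in all 3 comparisons. The raw counts themselves were 0.167, 0.107 and 0.0870 times that of P2 RPC. The bounds are nearer to 1 than the raw ratios because they are set at the threshold and not at the measured count.

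By comparison, P8 MG against P2 RPC had 2 of the 4 miRNAs called higher and 1 lower, where 12.7% and 9.17% of the 229 miRNAs above background in either library were called. P11 MG against P2 RPC had 1 higher and 1 lower, beside 17.7% and 10.3% of 232. Adult MG against P2 RPC had 1 higher and 2 lower, beside 20.7% and 16.5% of 242. With 4 members these counts carry no share of their own.

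None of the 4 was called between glial ages with the scaling used, while on total counts both arms of miR-129 were called lower in adult MG than in P8 MG. P11 MG against P8 MG had 2.55% of 157 miRNAs called higher and 6.37% lower. For adult MG against P11 MG the shares were 12.8% and 12.3% of 179, and for adult MG against P8 MG 15.0% and 17.2% of 180. Over those ages miR-138 and miR-218 were at background on both sides, and only miR-129-3p was measured on both.

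**Figure D3:**
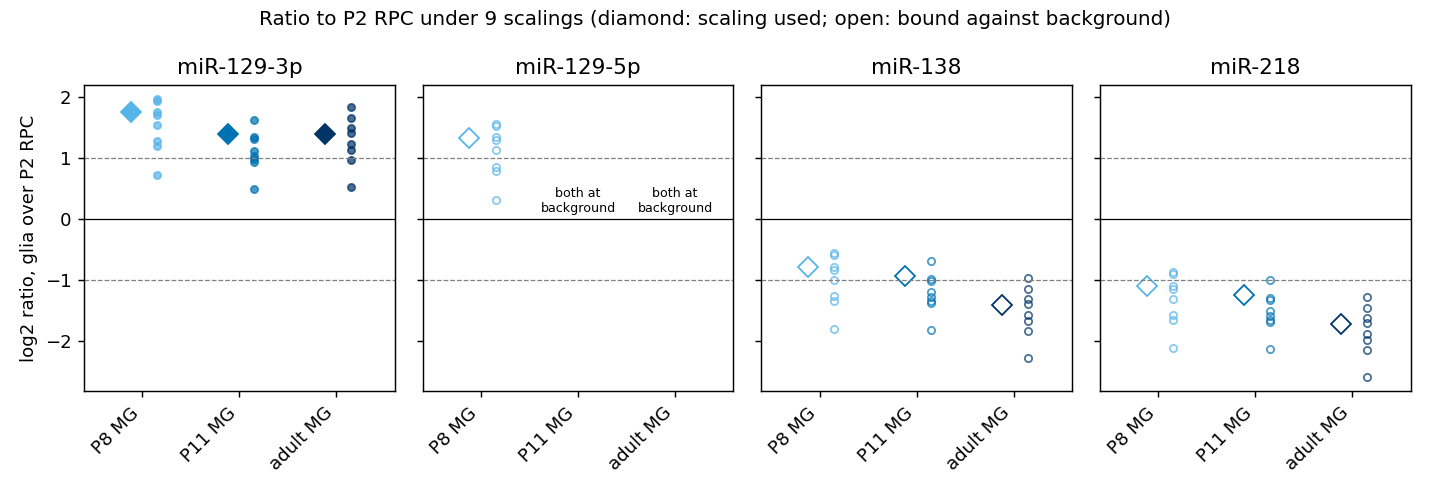
Log2 ratio of each glial library to P2 RPC, with a diamond for the scaling used and circles for 8 other scalings; open symbols are bounds against background and dashed lines mark 2-fold. miR-129-3p lies above 0 and miR-138 and miR-218 below 0 under every scaling, while several values cross the 2-fold line.

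The direction against P2 RPC was the same under all 9 scalings for each member with a ratio. The log2 ratio of miR-129-3p ranged from 0.73 to 1.97 in P8 MG, from 0.50 to 1.63 in P11 MG and from 0.52 to 1.84 in adult MG, and was called under 8, 6 and 7 of the 9. The lowest values came from housekeeping mRNAs in P8 MG and P11 MG and from total counts in adult MG. The bound for miR-218 was called under 7, 8 and 9 scalings, and that for miR-138 under 3, 6 and 8. That for miR-129-5p in P8 MG was called under 6. The shift that a scaling gives to all ratios of P8 MG to P2 RPC ran from -1.03 (housekeeping mRNAs) to 0.22 (ligation controls) on the log2 scale.

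Relative to miR-124, the classical neuronal miRNA, miR-129-3p moved apart, and no scaling enters this comparison. miR-124 had 7015 raw counts in the progenitors and 3117, 1220 and 1211 in the P8, P11 and adult glia, so it was lower in the glia while miR-129-3p was higher. The count of miR-129-3p per count of miR-124 was 7.41-fold higher (6.13 to 8.99) in P8 MG than in P2 RPC, 12.6-fold higher (10.2 to 15.5) in P11 MG and 12.0-fold higher (9.76 to 14.8) in adult MG. The raw count of miR-138 per count of miR-124 was 1.07 times (0.849 to 1.35), 1.93 times (1.47 to 2.52) and 1.39 times (1.02 to 1.88) that of P2 RPC in the P8, P11 and adult glia. After subtraction of the mean negative control these were 0.497, 0.890 and 0.562, so that the direction for miR-138 against miR-124 turned with the background. For miR-218 the raw ratios were 0.376 (0.272 to 0.511), 0.615 (0.411 to 0.893) and 0.504 (0.322 to 0.757). Both were at background in the glia, so neither set of values measures a change. Relative to miR-9, which progenitors and glia also express, miR-129-3p was 2.09-fold higher (1.74 to 2.53) in P8 MG, 1.56-fold (1.29 to 1.91) in P11 MG and 2.03-fold (1.67 to 2.48) in adult MG. Against miR-9, the raw miR-218 count was 0.106 times as high (0.0771 to 0.144) in P8 MG as in P2 RPC and that of miR-138 0.303 times (0.241 to 0.380), although both were at background in the glia.

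Most other neuronal miRNAs of the panel lay near or below background. Of 16 in a fixed list 14 had a probe, and 8 of these were above background in the progenitors and 3, 4 and 5 in the P8, P11 and adult glia. Over all 566 miRNA probes the numbers were 220 in the progenitors and 134, 149 and 171 in the glia. In each comparison with P2 RPC, 1 of the 14 was called lower, miR-124, and none higher. The shares called lower over all miRNAs above background in either library were 9.17%, 10.3% and 16.5% for the P8, P11 and adult glia. The shares called higher were 12.7%, 17.7% and 20.7%. miR-128, a neuronal miRNA enriched in brain, and miR-7a were above background in P2 RPC alone. miR-128 had 77 raw counts there and 106, 77 and 57 in the P8, P11 and adult glia, and miR-7a had 74 there and 120, 95 and 57. Neither was called in any comparison, and P2 RPC had the lowest threshold of the 4 lanes. miR-153, which targets synaptic vesicle transcripts, had 9 to 28 raw counts and was above background in no library.

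**Figure D4:**
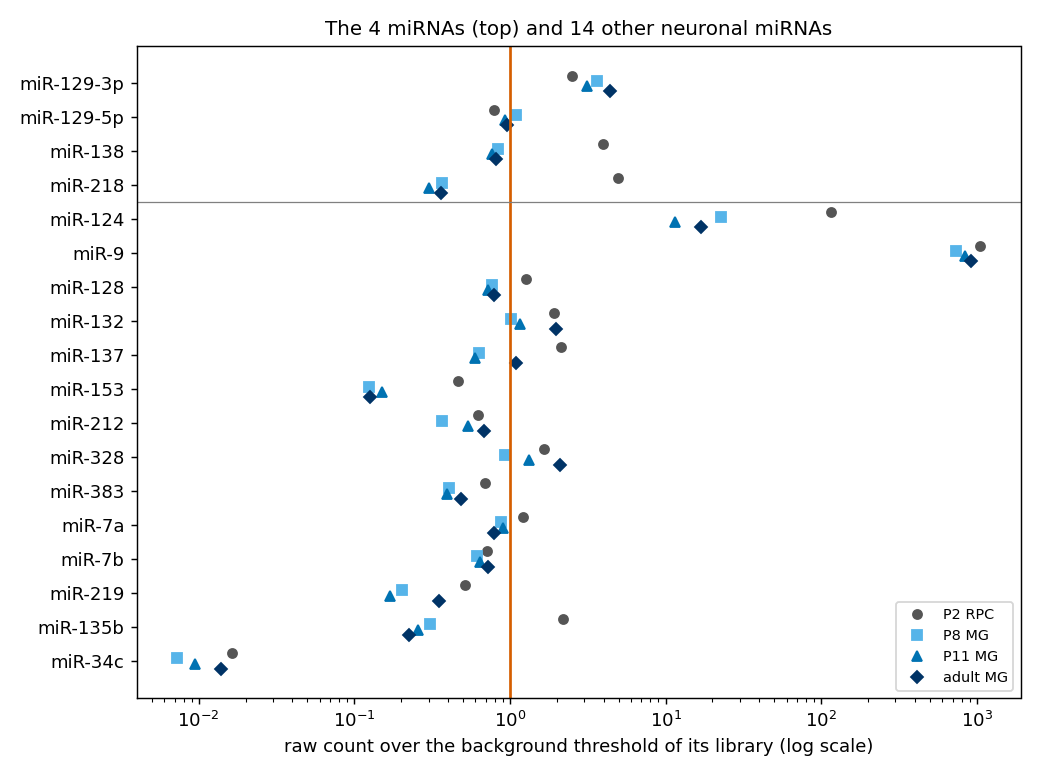
Raw count divided by the background threshold of its own library (log axis) for the 4 miRNAs at the top and 14 other neuronal miRNAs below, 1 symbol per library; the orange line is the threshold. miR-138 and miR-218 lie right of the line in P2 RPC alone, and only miR-124 and miR-9 lie more than 10 times above it.

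Markers of other cells differed between the same libraries. The sums that follow cover only the probes above the threshold of their lane, unless all members are named. The 3 photoreceptor miRNAs miR-183, miR-96 and miR-182 summed to 20274 normalized counts in P2 RPC (3 of 3 above background), 5573 in P8 MG (3 of 3), 1270 in P11 MG (2 of 3) and 733 in adult MG (2 of 3), and so moved in the direction of miR-138 and miR-218. The 6 microglia and white blood cell miRNAs summed to 142 in P2 RPC (1 of 6), 1070 in P8 MG (4 of 6), 1256 in P11 MG (4 of 6) and 653 in adult MG (4 of 6), and so moved in the direction of miR-129-3p. Over all 6 members, above background or not, the sums were 296 in the progenitors and 1132, 1312 and 683 in the P8, P11 and adult glia. In that list miR-223, a myeloid miRNA, was above background in no library and miR-155 had 1 raw count in each. Its members miR-142-3p and miR-146a were called lower in adult MG than in P8 MG and P11 MG. Its members miR-142-5p and miR-150 were not, and neither was miR-129-3p. miR-142-5p had 291, 281 and 260 normalized counts in the P8, P11 and adult glia, and miR-150 had 160, 129 and 166. The 7 Müller glia miRNAs also moved in the direction of miR-129-3p against P2 RPC. They summed to 55160.5 in the progenitors and 113799, 196783 and 488581 in the P8, P11 and adult glia. Between glial ages, 4 of these 7 were called higher in adult MG than in P11 MG and 5 than in P8 MG. The shares over all miRNAs above background in either library were 12.8% and 15.0%, and miR-129-3p was called in neither comparison. Of the 2 endothelial miRNAs 1 was above background in each library, with 239 to 427 normalized counts. The 3 red blood cell miRNAs were above background nowhere, and of 4 muscle miRNAs 2 were so in P2 RPC and none in the glia. Over all 4 members the muscle sums were 241 in the progenitors and 380.1, 309 and 277 in the P8, P11 and adult glia, where the thresholds were higher, and none of the 4 was called. The part of these cells in the values of the 4 miRNAs was not tested.

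Over the 4 libraries, the profile nearest to that of miR-129-3p among 116 other miRNAs above background throughout was miR-24, at a root mean square difference of 0.20 on the log2 scale. miR-24 lay near background, with 64.2 normalized counts in the progenitors and 150, 128 and 140 in the P8, P11 and adult glia. The thresholds on that scale were 54.8, 127, 115 and 82.3 in the same order. How far its profile follows them was not tested. miR-142-5p, a blood cell miRNA, followed at 0.26 and miR-1224 at 0.32. With the mean of the negative controls subtracted, miR-24 (0.22) and miR-142-5p (0.32) came first again, followed by let-7b (0.35). miR-129-5p shared its set of libraries, P8 MG alone, with 1 other probe, miR-764-5p, which had 148 normalized counts there. miR-138 and miR-218 each shared their set, P2 RPC alone, with 62 other miRNAs. Nearest in level to miR-138 were miR-216b, miR-18a and miR-669f, with 206, 193 and 184 normalized counts in P2 RPC, and nearest to miR-218 were miR-138, miR-216b and miR-18a. Being nearest over 4 libraries is a description of these values only.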

How the data were processed

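Raw barcode counts per probe were deposited for 626 probes and used as given; the counting software is not given in the sources used here, nor is a genome build. A second table deposited by the authors holds processed values, named here a score. Set against the raw counts, a score was found to be the count minus a background (the average of the 8 negative controls plus 3 SD), multiplied by a factor of the lane, with a floor of 1; 8 positive and ligation controls did not follow this.

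Each group had 1 library, so no test was made. Counts were scaled by positive controls and the top 100 miRNA probes. Counts not above background took the value of the threshold, which makes their ratio a bound. Intervals were exact Poisson for counts, exact binomial (Clopper-Pearson) for shares, exact conditional binomial for ratios and conditional odds ratios for ratios of 2 probes, all at 95% (scipy 1.17.1). TMM factors came from edgeR 4.0.16. Alternatives were 8 other scalings, 4 other background treatments, thresholds of 1.5-fold and 3-fold and the score table. The calling rule was tested on simulated counts with the same background in both lanes and a known scaling factor. Recovery was scored for well-counted probes only. The scaling, unequal backgrounds and counts near background were therefore not tested in this way.

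The 4 members and the lists were chosen with earlier results of these data known. Named besides the members are miR-124, miR-9, members of the fixed lists and the 3 nearest profiles of each member. The comparison with background probes was added after the data had been seen. Sequences and gene names are RefSeq's (GRCm38.p6), matched by name, for 3 of the 4 members through older naming with no accession to check it.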

Additional observations from a re-analysis of the deposited data

How the results depend on the processing

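Of 213 alternative log2 ratios, 169 kept their direction and their side of the rule. No paired analysis was possible because each group has 1 library. There are no replicates to leave out, and low counts limit the values of miR-129-5p, miR-138 and miR-218 most. The cause was not tested for any value below.

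The number of the 4 members called in P8 MG against P2 RPC (3 as reported) was 1 with the mean plus 3 SD as background or a 3-fold threshold. It was 2 on the top 50 probes, housekeeping mRNAs or ligation controls, and 4 with the highest negative control as background, after subtraction or at 1.5-fold. P11 MG against P2 RPC (2 as reported) had 0 at 3-fold, 1 on the top 50 probes or with the mean plus 3 SD, 4 with the highest negative control and 3 under 7 other alternatives. Adult MG against P2 RPC (3 as reported) had 1 at 3-fold and 2 on total counts, housekeeping mRNAs or ligation controls. Adult MG against P8 MG (0 as reported) had 2 on total counts and 1 at 1.5-fold. An equal number can stand for other members: on positive controls the 2 called in P11 MG against P2 RPC were miR-138 and miR-218.

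In P8 MG against P2 RPC, calls were lost by miR-129-3p on housekeeping mRNAs (0.73), by miR-129-5p on housekeeping mRNAs (0.31), their sum (0.86), TMM factors (0.79) and at 3-fold (1.34), and by miR-218 on the top 50 probes (-0.90), ligation controls (-0.87), the mean plus 3 SD (-0.78) and at 3-fold (-1.09). miR-138 gained one on housekeeping mRNAs (-1.80), their sum (-1.25), TMM factors (-1.33), the highest negative control (-1.03), after subtraction of the mean negative control (-1.59) and at 1.5-fold (-0.78).

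In P11 MG against P2 RPC, calls were lost by miR-129-3p on positive controls (0.98), housekeeping mRNAs (0.50), TMM factors (0.94) and at 3-fold (1.39), and by miR-218 on the top 50 probes (-0.997), the mean plus 3 SD (-0.90) and at 3-fold (-1.24). miR-138 gained one on total counts (-1.195), positive controls (-1.33), housekeeping mRNAs (-1.82), their sum (-1.27), TMM factors (-1.37), the median of ratios (-1.005), the highest negative control (-1.05), the viral probes' 95th percentile (-1.10), after subtraction (-1.63) and at 1.5-fold (-0.93).

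In adult MG against P2 RPC, calls were lost by miR-129-3p on total counts (0.52), housekeeping mRNAs (0.97) and at 3-fold (1.40), and by miR-138 on ligation controls (-0.97) and at 3-fold (-1.40); miR-218 kept its call under all 14 alternatives that gave a ratio. Between glial ages, miR-129-3p in adult MG against P11 MG turned from 0.0072 to -0.60 on total counts. In adult MG against P8 MG it turned to 0.24 on housekeeping mRNAs, 0.13 on their sum and 0.25 in the score table, and was called lower on total counts (-1.23). miR-129-5p was called lower there on total counts (-1.63) and at 1.5-fold (-0.75).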

Other observations

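A few weaker neuronal miRNAs were above background in some libraries without being called. miR-132, an activity-induced neuronal miRNA, had 116 raw counts in the progenitors and 139, 122 and 141 in the P8, P11 and adult glia, above background in all 4, whereas miR-212, made from the same locus, had 38 to 57 and was above it in none. miR-328 had 100, 127, 141 and 150 raw counts and was above background in all but P8 MG. miR-137 was above it in P2 RPC (130) and adult MG (78). miR-135b had 133 raw counts in P2 RPC and 42, 27 and 16 in the glia, and was above background in P2 RPC alone, as miR-138 and miR-218 were.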
